A study of Mus musculus with 18 samples.

Results

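The genes described here encode the proteins of the large (60S) subunit of the cytosolic ribosome and its phosphoprotein stalk. They were chosen by biotype and name: protein-coding rows whose symbol starts with Rpl or Rplp followed by a number. Rpl37 and Rpl39 fit the same pattern and were left out, a choice made with earlier results of these data known, so counts of rising members do not cover them. This gave 48 of the 25957 genes counted, and 47 had enough counts to be tested. The untested gene, Rpl3l, a paralog of Rpl3 made mainly in striated muscle, had 1 count over all libraries.

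The study measured mRNA by BRB-seq, a bulk method that barcodes the cDNA of each sample, pools the samples and reads near the 3′ ends of mRNAs. The cells were C2C12, an established mouse myoblast line that can fuse into myotubes. All were grown in 20% fetal bovine serum, and the 18 libraries fell into 6 groups of 3, numbered by the labels as lots. For control, lysis buffer went straight onto the plate and the cells were scraped off, with no wash or enzyme named. The other cells were washed with PBS and given 200 µL of enzyme: 0.25% trypsin held at 37 °C, with 30 s, 3 min and 30 min as the times; the same trypsin taken off at once and then 3 min at 37 °C (low trypsin); or, for 5 min on a shaker at 4 °C, a protease able to work in the cold (cold-active protease). Wash, incubation and detachment differ from control together with the enzyme, so their parts in a difference from control cannot be told apart. The labels do not say that lots were separate cultures. The p-values therefore cover the spread between these libraries alone, which may be technical.

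Ribosomal protein mRNAs are abundant, short and stable, and every growing cell spends a large part of its translation on them. Most begin with a run of pyrimidines at the cap, the 5′ TOP motif, through which mTOR signalling and the protein LARP1 control their translation together. The large subunit joins amino acids at its peptidyl transferase centre and releases the chain through an exit tunnel. Its stalk, built from Rplp0, Rplp1 and Rplp2, recruits and activates the GTPases of translation. Rpl5 and Rpl11 carry the 5S rRNA into the subunit and, when free, bind the p53 regulator Mdm2.

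Sequences around the start site are shown for 6 members, because a shared start is what would make a promoter or TOP split of the family possible. Each runs 5′ to 3′ on the sense strand from 10 bases before the annotated start through the first 20 transcribed bases (RefSeq, GRCm38.p6), with a pyrimidine motif in capitals where one was found.
Rpl28, chr7:4792955-4792984, plus strand: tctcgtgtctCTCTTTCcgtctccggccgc
Rpl38, chr11:114668570-114668599, plus strand: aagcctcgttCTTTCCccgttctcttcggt
Rpl12, chr2:32961702-32961731, plus strand: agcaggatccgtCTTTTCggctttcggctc
Rpl35, chr2:39005112-39005141, minus strand: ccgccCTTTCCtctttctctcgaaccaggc
Rpl13a, chr7:45128726-45128755, minus strand: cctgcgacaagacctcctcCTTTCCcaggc
Rpl26, chr11:68901556-68901585, plus strand: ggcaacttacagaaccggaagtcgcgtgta

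The motif searched was any of 3 strings, on the sense strand only and within 20 bases of the start on either side. The first string was CTTTTC. A further string, CTTTCC, is the one marked for Rpl38, Rpl35 and Rpl13a. The remaining string was CTCTTTC, and the strings can overlap one another. RefSeq start windows matched 36 of the 48 members, and 12 of the 36 (33.3%) held the motif, against 4.34% of 27025 genes. The ETS-type string CCGGAAG, on either strand of the 300-base window, was in 12 of 36 (33.3%) against 9.93% of genes; it can be read in the Rpl26 window above. The YY1-type string AAGATGGC was in 4 of 36 (11.1%) against 3.19%. A match describes these letters and is not shown to be a site. The 6 genes printed did not move together: Rpl28 and Rpl26, with and without the motif, were among the members with the largest falls, whereas Rpl38 was higher after 30 s and Rpl13a was called in no comparison.

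Libraries held 1490869 to 2480690 counts. The myoblast markers checked summed to 1300–1560 CPM (counts scaled to a common library total) in every library, with 6 of 7 tested and Pax7, at a mean of 0.634 CPM, not. Differentiated myotube markers, 5 of 8 tested, summed to 164–190 CPM in control, 156–161 after 30 s, 147–169 after 3 min, 120–152 after 30 min, 117–145 in low trypsin and 152–160 after cold-active protease; all but the 3 min group lay below control, and their part in the results was not tested. Macrophage, endothelial, epithelial and adipocyte markers had none tested and summed to at most 7.1 CPM. Annotated pseudogenes took 0.554% to 0.651% of control counts, 0.782% to 0.861% after 30 s and 0.965% to 0.998% in low trypsin, against 0.569% to 0.712% in the 3 min, 30 min and cold-active protease groups.

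The share of all counts that fell on the 48 genes was highest in scraped cells. It was 3.28% ± 0.068 in control (SD, n = 3 libraries), 2.64% ± 0.0092 after 30 s, 2.64% ± 0.0096 after 3 min and 3.00% ± 0.048 after 30 min in trypsin. Low trypsin gave 3.01% ± 0.068 and cold-active protease 3.17% ± 0.041. The libraries of the 30 s group lay between 2.63% and 2.65% and those of the 3 min group likewise, below every other library, and each treated group lay below the lowest control library of 3.23%. Against control each exact two-sided permutation test gave p = 0.1, the smallest that 3 against 3 libraries allow. In bulk libraries, fewer cells with an mRNA and less of it per cell cannot be told apart.

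**Figure D1:**
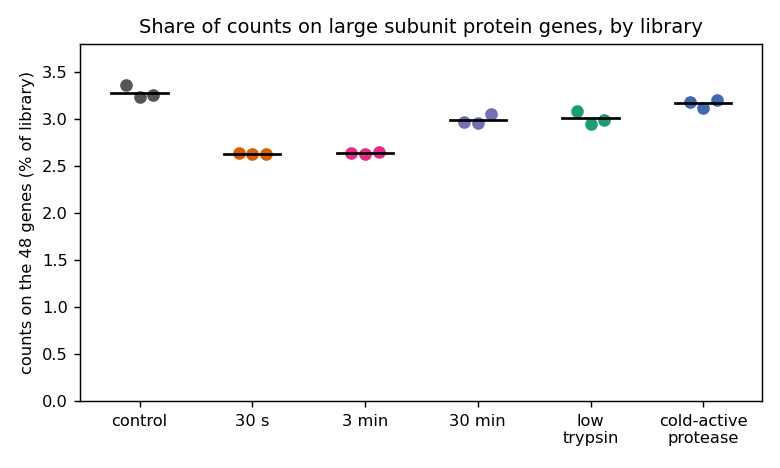
Percent of each library's counts on the 48 large subunit protein genes (y axis) in the 6 groups (x axis); points are libraries and black bars are means of 3. The 30 s and 3 min libraries lie between 2.63% and 2.65%, and the control libraries lie between 3.23% and 3.36%.

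Most large subunit mRNAs differed among the groups. An edgeR quasi-likelihood F test over the 6 groups, adjusted by Benjamini-Hochberg over all tested genes and called under 0.05, called 40 of 47 members, against 11.5% of the 10075 genes tested. The 4 most highly counted members that it did not call were Rpl4 and Rpl7, whose proteins contact the 28S rRNA in the core of the subunit, Rpl13a, and the Rpl7 paralog Rpl7l1. Rpl4 means lay between 1863 CPM in low trypsin and 2032 CPM in control, and Rpl7 means between 752 CPM in control and 824 CPM after 30 min. The other 3 uncalled members had only 165 to 202 counts over 18 libraries, which limits what could be detected in them. Tested members had a median of 469 CPM. Shares of all genes, here and below, include many genes with fewer counts, where less can be detected, so they are not matched for depth.

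After 30 s in trypsin, 34 of 47 members fell and 1 rose, at a median log2 change of -0.38 against 0.00 for all tested genes; edgeR called 6.94% of all genes, 3.7% lower and 3.24% higher. Libraries of the 2 groups did not overlap in 41 of 47 members, against 21.9% of all genes. Among the largest falls were those of Rpl26, which sits near the exit tunnel, with a log2 change of -0.97 ± 0.065 (SE), Rpl32 (-0.95), Rplp1 (-0.91) and Rpl28 (-0.90). The left-out Rpl37 and Rpl39 were both called higher in this comparison, with log2 changes of 0.22 and 0.69 (edgeR adjusted p = 0.00472 and 3.88e-10). They are given as a description. Rpl38, the single member that rose, changed by 0.61 ± 0.088 (edgeR adjusted p = 5.31e-07). Pseudogenes that carry the name of a large subunit gene took 0.0599% to 0.0659% of counts here against 0.0301% to 0.0387% in control. With those counts added to the genes they are named after, 32 members fell and 2 rose. Copies under other names were not added, and all annotated pseudogenes took 0.782% to 0.861% of counts in this group.

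After 3 min, 28 of 47 members fell and none rose (0 higher also at an unadjusted edgeR p under 0.05 and by DESeq2), at a median of -0.41 against 0.01 for all genes; edgeR called 3.96% of all genes, 2.95% lower and 1.01% higher. Libraries did not overlap in 36 members, against 17.6% of genes. Rplp1 (-0.96), Rpl28 (-0.93), Rpl26 (-0.92), Rpl32 (-0.91) and Rpl36a (-0.87) fell most. The named large subunit pseudogenes took 0.0339% to 0.0391% of counts, a range that overlapped control.

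After 30 min, 22 of 47 members fell and none rose (2 higher at an unadjusted edgeR p under 0.05, 0 by DESeq2), at a median of -0.22; edgeR called 4.68% of all genes, 2.61% lower and 2.07% higher. Libraries did not overlap in 30 members, against 19.5% of genes. The largest called falls were in Rpl35 (-0.77), a protein at the rim of the exit tunnel, Rpl19 (-0.76), which reaches across to the small subunit, Rpl15 (-0.55), Rpl10 (-0.50) and Rpl32 (-0.48). Rpl10 joins the subunit last, in the cytoplasm. Rpl35, Rpl19, Rpl15, Rpl10 and Rpl32 all share sequence with other genes, described below, which makes their levels uncertain. The shared part ran from 30.4% of the 45-base stretches of the mRNA for Rpl15 to 96.2% for Rpl35.

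In low trypsin, 21 of 47 members fell and 3 rose, at a median of -0.20; edgeR called 5.19% of all genes, 1.9% lower and 3.3% higher. Libraries did not overlap in 31 members, against 19.6% of genes. Rpl10 (-0.41), Rpl19 (-0.40), Rpl15 (-0.39), Rpl35 (-0.38) and Rplp1 (-0.37) fell most, and Rpl24, Rpl36al and Rpl12 rose. The named large subunit pseudogenes took 0.0643% to 0.0742% of counts, above all control libraries, and with those counts added 19 members fell and 5 rose. The Rpl15 call ended without control library 3 (edgeR adjusted p = 0.0736) and without low trypsin library 2 (0.0978).

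After cold-active protease, 6 of 47 members fell and none rose (2 higher at an unadjusted edgeR p under 0.05, 1 by DESeq2), at a median of -0.08; edgeR called 0.665% of all genes, 0.467% lower and 0.199% higher. Libraries did not overlap in 23 members, against 14.1% of genes. The falls were in Rpl10 (-0.42), Rpl15 (-0.41), Rpl19 (-0.34), Rpl5 (-0.26) and Rpl6 (-0.25), and in Rpl13 (-0.20), named after its value was seen. This count is the least settled of the 5. It was 3 without control library 1 or 3 or protease library 3, and 2 without protease library 1 or 2, and DESeq2 called 10. Rpl6 and Rpl15 lost their call with any of the 6 libraries left out (edgeR adjusted p = 0.0904 to 0.203 and 0.0517 to 0.204). All 5 comparisons share the same 3 control libraries, so they are set side by side and not counted as separate support.

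**Figure D2:**
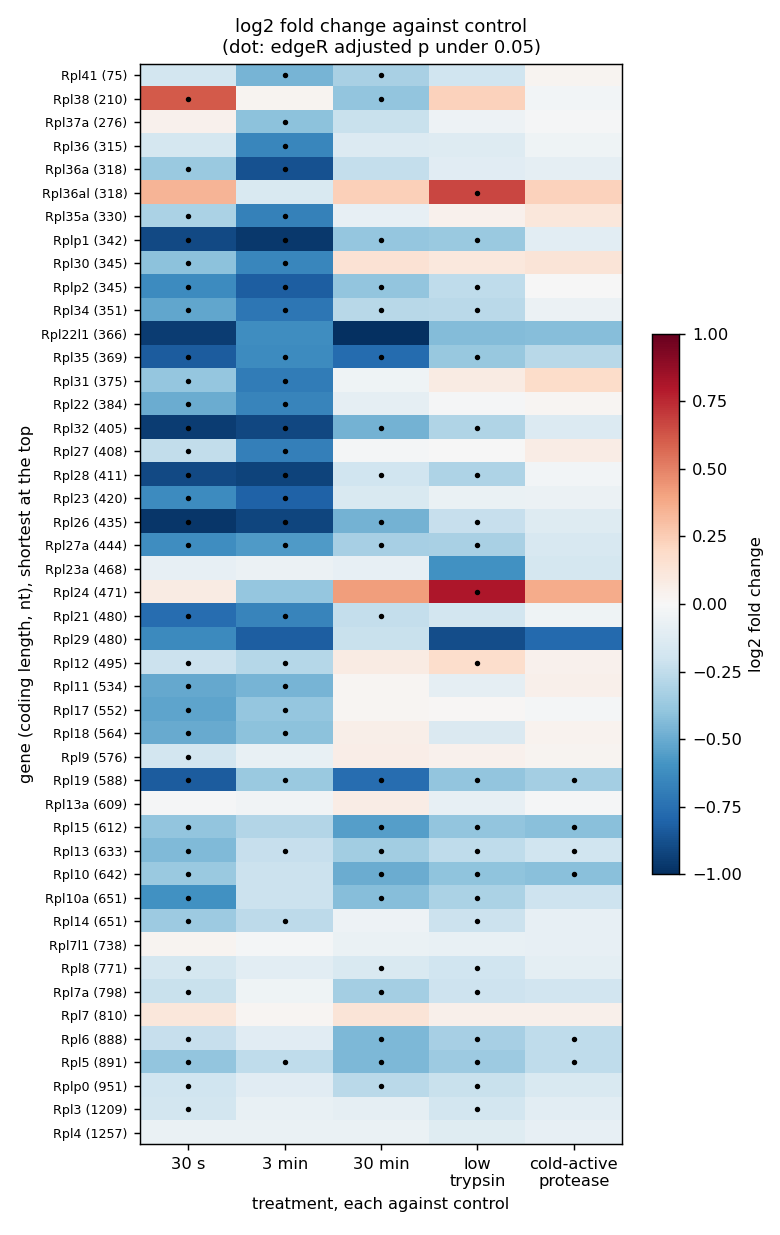
Log2 fold change against control (colour, with the scale ending at 1 in either direction) of the tested members, 1 of them not shown, from the shortest coding sequence at the top to the longest at the bottom, in 5 treatments (columns); a dot marks an edgeR adjusted p under 0.05. Falls at 3 min gather in the upper rows, Rpl38 stands out in red at 30 s, and 6 dots remain for the cold-active protease.

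In the stalk, the proteins that contact translation factors and the protein that anchors them behaved unequally. Rplp1 read 1572, 1642 and 1536 CPM in control, 839.8, 860.2 and 836 CPM after 30 s, and 759, 811 and 869 CPM after 3 min. It read 1211, 1087 and 1345 CPM after 30 min, 1357, 1175 and 1135 CPM in low trypsin, and 1408, 1496 and 1511 CPM after cold-active protease. Every treated library lay below every control library, with the 30 s and 3 min libraries lowest, and the fall was called in each trypsin group but not after cold-active protease (-0.11 ± 0.058, edgeR adjusted p = 0.632).

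Rplp2, the partner of Rplp1 in the stalk dimer, fell by 0.63 after 30 s and 0.82 after 3 min, and by 0.39 and 0.26 after 30 min and in low trypsin (log2). Its cold-active protease libraries, at 871 to 894 CPM, lay within the control range of 853 to 902 CPM. Rplp0, which ties the dimers to the ribosome, moved much less: 1573 to 1642 CPM in control, 1370.2 to 1439 CPM after 30 s and 1456 to 1509 CPM after 3 min. Its fall was 0.20 after 30 s, 0.27 after 30 min and 0.22 in low trypsin, and its change of -0.12 after 3 min was not called (edgeR adjusted p = 0.191). Within a library the ratio of Rplp1 to Rplp0 counts, which no library scaling touches, was 0.960 to 1.00 in control, 0.595 to 0.610 after 30 s and 0.503 to 0.596 after 3 min. The ratio was 0.798 to 0.979 after 30 min, 0.817 to 1.01 in low trypsin and 0.946 to 1.06 after cold-active protease, ranges that overlapped control. Exact permutation tests of Rplp1 to Rplp0 gave p = 0.1 for the 30 s and 3 min ratios against control and 0.3 to 0.5 for the others. The ratio of Rplp2 to Rplp0 was 0.542 to 0.551 in control, 0.400 to 0.407 after 30 s and 0.319 to 0.353 after 3 min. It was 0.468 to 0.539 after 30 min, 0.508 to 0.571 in low trypsin and 0.593 to 0.616 after cold-active protease. Only the low trypsin range overlapped control (exact permutation p = 0.5, and 0.1 for each other group). The coding sequences of Rplp1 and Rplp2, at 342 and 345 nt, are shorter than that of Rplp0, at 951 nt. Members with shorter coding sequences fell further at 3 min, as described below, and these ratios cannot separate the stalk from length.

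Rpl12, the protein at the stalk base, followed another order. Its mean was 1895 ± 34 CPM in control (SD, n = 3), 1633 ± 33 after 30 s and 1558 ± 53 after 3 min, and it fell by 0.21 and 0.28 (log2). It read 2005 ± 126 CPM after 30 min and 1957 ± 96 CPM after cold-active protease, both overlapping control, and 2137 ± 72 CPM in low trypsin. The low trypsin rise of 0.17 ± 0.047 (edgeR adjusted p = 0.0147) ended without control library 2 (0.0915) or low trypsin library 1 (0.0725) or 2 (0.0909).

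The 5S partners separated after 30 min. Rpl11 fell by 0.51 after 30 s and 0.46 after 3 min, and after 30 min it read 1335 to 1377 CPM against 1308 to 1418 CPM in control (log2 change 0.02, edgeR adjusted p = 0.92). Rpl5 read 537 to 596 CPM in control and was lower in every other group, with the lowest mean of 416 CPM after 30 min. Its falls were 0.39, 0.25, 0.45, 0.37 and 0.26 after 30 s, 3 min, 30 min, low trypsin and cold-active protease. The ratio of Rpl5 to Rpl11 counts was 0.405 to 0.456 in control, 0.297 to 0.320 after 30 min, 0.339 to 0.358 in low trypsin and 0.330 to 0.356 after cold-active protease, with no overlap with control (exact permutation p = 0.1 each). After 30 s and 3 min the ratio was 0.418 to 0.526 and overlapped control. The Rpl5 call at 3 min ended without control library 3 (edgeR adjusted p = 0.0568), and the cold-active protease call ended without control library 3 (0.173) or protease library 1 (0.0696) or 2 (0.0961).

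Rpl32 and Rpl28, surface proteins of the subunit, were close to their lowest at both early times. Rpl32 read 1115, 1007 and 1052 CPM in control, 544, 569.7 and 526 CPM after 30 s, and 574, 547 and 572 CPM after 3 min. It read 744, 754 and 783 CPM after 30 min, 850.3, 869 and 850.3 CPM in low trypsin, and 950.5, 934 and 1004 CPM after cold-active protease. The treated libraries all lay below control, and the fall was called in each trypsin group, whereas the cold-active protease change of -0.14 ± 0.051 was not (edgeR adjusted p = 0.313).

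Rpl28 read 535, 545 and 562 CPM in control, 299.8, 276 and 305 CPM after 30 s, and 292, 288 and 284 CPM after 3 min. It read 468, 468 and 492 CPM after 30 min, 453, 459 and 416 CPM in low trypsin, and 539.7, 539 and 528 CPM after cold-active protease. Cold-active protease libraries overlapped control, and the others did not. The 30 min fall of 0.20 (edgeR adjusted p = 0.0239) ended without control library 2 (0.0651) or 3 (0.112), or 30 min library 1 (0.078) or 2 (0.0908).

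The means of Rpl10 and Rpl19 lay nearer to control after 3 min than after 30 s or 30 min. Rpl10 read 261, 271 and 274 CPM in control, 216, 197 and 208 CPM after 30 s, 233, 228 and 234 CPM after 3 min, and 184, 200.2 and 187 CPM after 30 min. It read 204, 207 and 198 CPM in low trypsin and 205, 195 and 203 CPM after cold-active protease. Every treated library was below every control library. The changes were -0.37, -0.21, -0.50, -0.41 and -0.42 in that order of groups, all called but that at 3 min (edgeR adjusted p = 0.0599). For Rpl10 the step from 30 s to 3 min, 0.16, was not called (edgeR adjusted p = 0.364), and that from 3 min to 30 min, -0.28, was (0.00895). With the counts of pseudogenes bearing its name added to Rpl10, the 30 s and low trypsin calls ended (edgeR adjusted p = 0.151 and 0.364). Of the 45-base stretches of its mRNA, 92.2% also occur in transcripts of 17 other genes, 16 of them pseudogenes.

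Rpl19 read 446, 377 and 396 CPM in control, 225, 239.8 and 216 CPM after 30 s, and 307, 309 and 322 CPM after 3 min. It read 244, 232 and 240.2 CPM after 30 min, 323, 289 and 309 CPM in low trypsin, and 301, 324 and 336 CPM after cold-active protease. The 30 s and 30 min libraries lay below all others, and none overlapped control. Its falls were 0.84 after 30 s, 0.37 after 3 min and 0.76 after 30 min, and both steps between these times were called (0.46 and -0.39, edgeR adjusted p = 5.92e-06 and 6.91e-05).

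**Figure D3:**
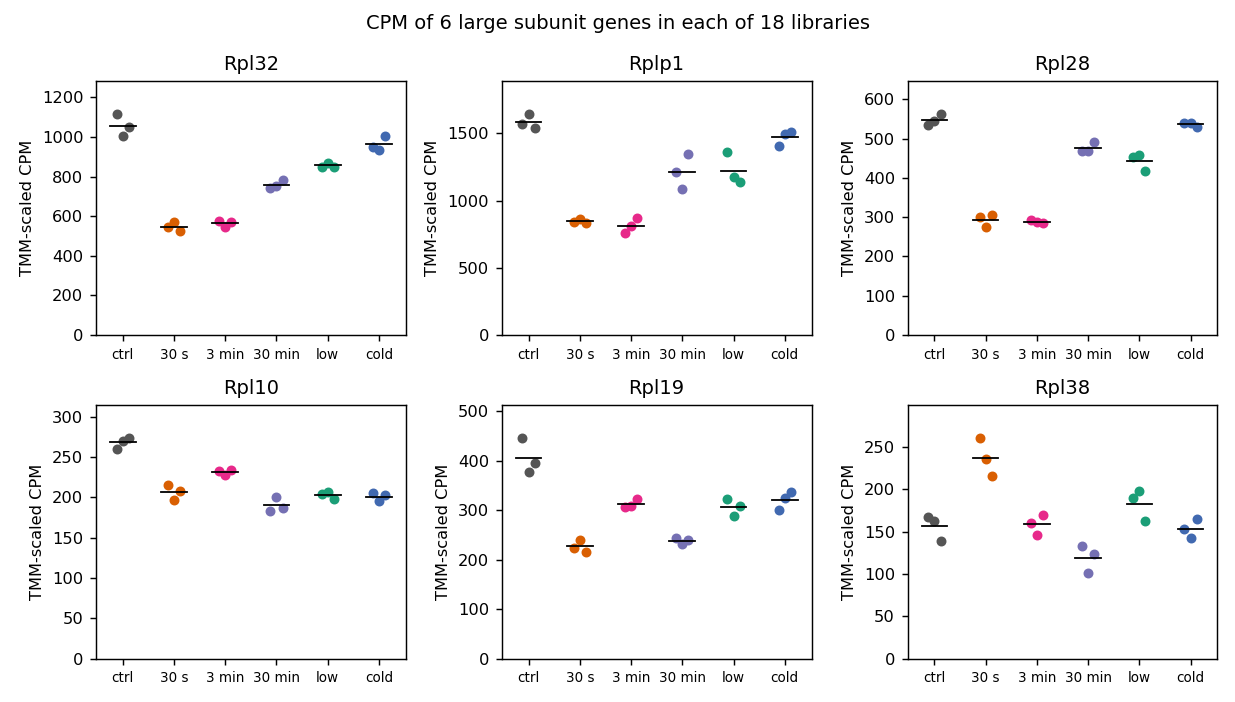
TMM-scaled CPM (y axis, from 0) of 6 members in 18 libraries by group (x axis: control, 30 s, 3 min and 30 min trypsin, low trypsin, cold-active protease); points are libraries and bars are means of 3. Rpl32, Rplp1 and Rpl28 are lowest at 30 s and 3 min, Rpl10 and Rpl19 are higher at 3 min than at 30 s or 30 min, and Rpl38 is highest at 30 s.

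Rpl38, known for its part in the translation of certain homeobox mRNAs in the embryo, was the only member called higher after 30 s. The left-out Rpl37 and Rpl39 were called higher too, so this standing depends on the choice of members. Rpl38 read 168, 163 and 139 CPM in control and 261, 236 and 215 CPM after 30 s, with no overlap. It read 161, 146 and 169.55 CPM after 3 min, 133, 101 and 124 CPM after 30 min, 189, 198 and 162 CPM in low trypsin, and 153, 142 and 165 CPM after cold-active protease. The 30 min libraries lay below control, with a fall of 0.39 (edgeR adjusted p = 0.00961) that ended without control library 1 (0.0597) or 2 (0.072) or 30 min library 2 (0.174). Rpl41, a very short basic peptide at the subunit interface, fell by 0.46 after 3 min and 0.33 after 30 min. Its coding sequence of 75 nt was the shortest of the family.

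Rpl3 and Rpl8, both next to the peptidyl transferase centre, changed little. Rpl8 means lay between 2651 CPM in low trypsin and 3037 CPM in control. Rpl8 fell by 0.18, 0.15 and 0.20 after 30 s, after 30 min and in low trypsin, and the 30 min call ended without control library 1 (edgeR adjusted p = 0.0844). Rpl3 fell by 0.18 after 30 s and by 0.18 in low trypsin; the calls ended without control library 3 (0.0596 and 0.0766), and that in low trypsin also without control library 1 (0.0557) or low trypsin library 2 (0.053).

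Low-count members and paralogs rested on few reads. Rpl36al, a paralog of Rpl36a, read 17.3 to 22.5 CPM in control and 28.0 to 37.9 CPM in low trypsin, a rise of 0.67 ± 0.19 (edgeR adjusted p = 0.024) that ended without control library 1 (0.102) or 3 (0.115) or low trypsin library 1 (0.221). DESeq2 did not call it (0.0801). Rpl24, a bridge to the small subunit, read 11.2 to 12.8 CPM in control and 18.4 to 24.3 CPM in low trypsin, a rise of 0.81 ± 0.24 (edgeR adjusted p = 0.0296). The Rpl24 call ended without control library 1, 2 or 3 (0.0579, 0.135, 0.0838) or low trypsin library 2 or 3 (0.0792, 0.144), and under DESeq2 (0.0974). Rpl36a itself fell by 0.37 after 30 s and 0.87 after 3 min. Rpl22l1, the paralog of Rpl22, had group means of 3.88 to 8.63 CPM and no call, while Rpl22 means were 403 to 646 CPM.

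Comparisons between treatments set no group against control, although the control libraries share in the fit's scaling and estimate of spread. From 30 s to 3 min, 5 members were higher and 10 lower, 15 of 47 in all, where edgeR called 1.94% of genes (0.476% higher and 1.46% lower); 26 members did not overlap, against 16.1% of genes. Rpl38 (-0.59), Rpl36a (-0.50) and Rpl36 (-0.48) fell most, and Rpl19 (0.46) and Rpl10a (0.39) rose most. The Rpl10a change turned to -0.18, not called, once the counts of its named pseudogenes were added. From 3 min to 30 min, 22 rose and 6 fell at a median of 0.23 (0.14 with the length trend in other genes subtracted), where edgeR called 4.03% of genes (2.83% higher and 1.2% lower), and 35 members did not overlap, against 17.7% of genes. Rpl30 (0.80), Rpl28 (0.72) and Rpl27 (0.67) rose most, and Rpl38 (-0.42), Rpl19 (-0.39) and Rpl6 (-0.34) fell most. This Rpl38 call ended without 3 min library 3 (edgeR adjusted p = 0.0607) or 30 min library 2 (0.141).

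Many members were higher in low trypsin than in cells left in trypsin for the same 3 min at the same temperature. That comparison had 25 members higher and 2 lower at a median of 0.26 (-0.06 once the trend of fold change with mRNA length in other genes was subtracted), where edgeR called 4.36% of genes (3.78% higher and 0.576% lower), and 35 members did not overlap, against 17% of genes. Rpl24 (1.20), Rpl36al (0.82) and Rpl31 (0.79) rose most. The 2 members that fell, Rpl6 (-0.22) and Rpl7a (-0.17), each lost the call without any of several libraries: for Rpl6, 3 min library 1 (edgeR adjusted p = 0.241) or 3 (0.202) or low trypsin library 1 (0.0568) or 2 (0.219), and for Rpl7a, 3 min library 1 (0.188), 2 (0.178) or 3 (0.106) or low trypsin library 1 (0.104) or 2 (0.269). The Rpl36al call ended without low trypsin library 1 (0.105). With the replicate number as a block, the Rpl7a call also ended (0.0552). So it did with DESeq2 size factors (0.0519), upper-quartile factors (0.0703) or TMM without ribosomal protein and mitochondrial genes (0.0729). No filter on low counts (0.114), named pseudogene counts added (0.0608) and only the 2 groups compared (0.0643) ended it too. The Rpl6 call ended without a filter on low counts (edgeR adjusted p = 0.0786) and under DESeq2 (0.0622).

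Low trypsin against 30 s trypsin had 24 members higher and 1 lower at a median of 0.26 (0.06 with the length trend subtracted), where edgeR called 2.98% of genes (2.55% higher and 0.427% lower), and 30 members did not overlap, against 16.6% of genes. Rpl26 (0.74) and Rpl32 (0.65) rose most, and Rpl38 fell by 0.38, a call that ended without 30 s library 1 (edgeR adjusted p = 0.0979) or low trypsin library 3 (0.0667). Cold-active protease against 3 min trypsin had 25 members higher and none lower (3 lower at an unadjusted edgeR p under 0.05, 0 by DESeq2) at a median of 0.37 (0.19 with the length trend subtracted), where edgeR called 3.7% of genes (2.84% higher and 0.864% lower), and 30 members did not overlap, against 16.8% of genes. Rpl28 (0.90), Rpl31 (0.88) and Rplp1 (0.86) rose most. Enzyme, temperature and time differ together in this last comparison and cannot be told apart.

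At 3 min, members with short coding sequences fell more often and further than longer ones. Tested members ran from 75 nt to 1257 nt of coding sequence with a median of 480 nt. At 3 min the 23 shorter members had a median log2 change of -0.66, with 18 lower, and the 24 others had -0.22, with 10 lower. At 30 s the medians were -0.41 and -0.37, with 15 and 19 lower. From 3 min to 30 min they were 0.45 and -0.01, and for cold-active protease against 3 min 0.76 and 0.02. Across the 47 members the Spearman correlation of coding length with fold change was 0.144 at 30 s and 0.612 at 3 min; all points share the same libraries, and their counts differ in depth. Of the shorter members 16 of 23 had their lowest group mean at 3 min, and of the others 1 of 24 did.

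Other genes of similar counts also differed by length, at 30 s as well as at 3 min. Among other coding genes with at least 219 CPM, the 122 shorter than 480 nt had a median of -0.21 at 3 min with 60 lower, and the 605 others had -0.02 with 29 lower. At 30 s these medians were -0.25 with 63 lower and -0.01 with 44 lower. Cold-active protease against control gave the opposite tilt in the family, with 0 shorter and 6 longer members lower. Once the trend of fold change with mRNA length in the other genes was subtracted, the member median against control was -0.24 at 3 min, -0.36 at 30 s and -0.28 in low trypsin.

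**Figure D4:**
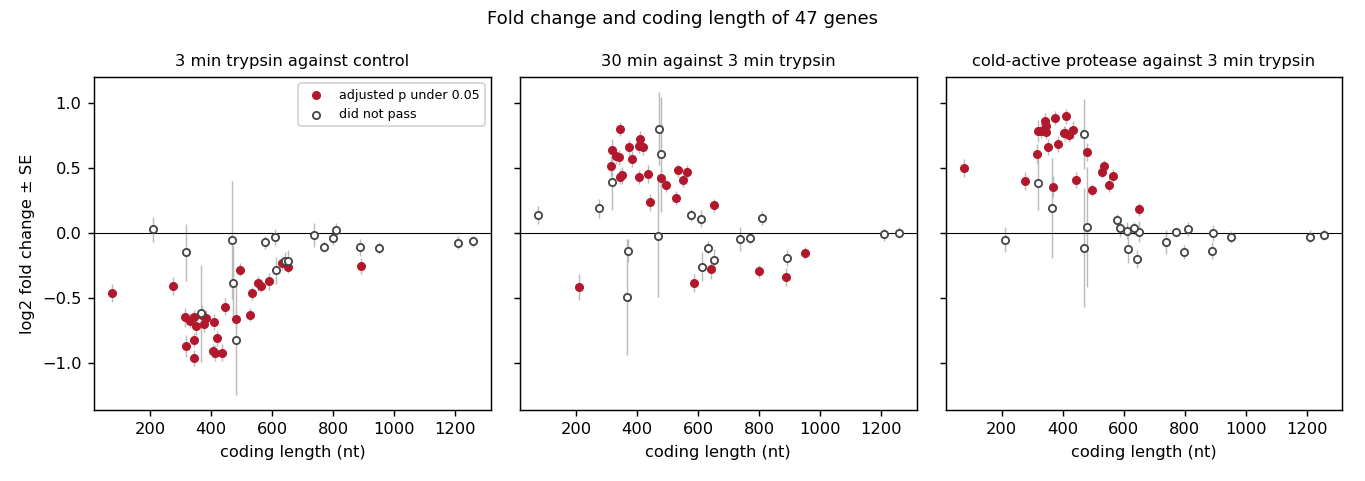
Log2 fold change ± SE (y axis) against coding length in nt (x axis) for the 47 tested members in 3 comparisons; filled points passed an edgeR adjusted p under 0.05 and open points did not. At 3 min most of the lowest points are members under 480 nt (median -0.66), and in the other panels most of these short members lie above 0 (medians 0.45 and 0.76). Rpl38 is an exception, at -0.42 for 30 min against 3 min.

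By start motif, the medians of the family lay close together. The 12 members with a searched string within 20 bases of the annotated start, on either side, had a median of -0.35 at 3 min, with 8 lower. The 23 tested members without one had -0.38, with 13 lower. At 30 s the medians were -0.40 and -0.37. A string can lie upstream of the start, as for Rpl4 and Rpl5, and the Rpl7a window holds other pyrimidine runs but no string. The split therefore sorts members by these letters and cannot tell TOP starts from others. Copies in the genome touch nearly all members: 47 of 48 share at least one 45-base stretch, the length of the longer read, with a transcript of another gene (median 63.1% of stretches). The 14 tested members with under 50% shared had medians of -0.56 at 30 s and -0.60 at 3 min, with 11 and 9 lower, and the 33 others had -0.37 and -0.38. Levels of members with copies are uncertain, since the handling of reads with several matches is not given in the sources used here. Rpl35 had the highest shared part, 96.2% of stretches, and the genes sharing them held 9621 counts against 5745 for Rpl35. Rpl15 shared 30.4% of stretches, and the genes sharing them held 5601 counts against 2941 of its own. For Rpl24 the counts were 1698 against 508. Stretches were counted over the whole mRNA, so the percentages do not show how much of the 3′ part read is shared.

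Genes around the family were read from lists of the same pathway. Of 34 tested small subunit protein genes, 26 fell and 6 rose after 30 s, 24 fell and none rose after 3 min (1 higher at an unadjusted edgeR p under 0.05, 0 by DESeq2), 13 fell and 2 rose after 30 min, 15 fell and 4 rose in low trypsin, and 3 fell and none rose after cold-active protease (3 higher at an unadjusted p, 1 by DESeq2). Their medians after 30 s and 3 min were -0.45 and -0.58, beside -0.38 and -0.41 in the large subunit. In the same order of groups, edgeR called 3.7%, 2.95%, 2.61%, 1.9% and 0.467% of all genes lower. It called 3.24%, 1.01%, 2.07%, 3.3% and 0.199% higher. Of 53 genes for large subunit assembly, none fell after 30 s (3 lower at an unadjusted edgeR p under 0.05, 0 by DESeq2) and 3 rose (2 by DESeq2), where 3.24% of all genes rose: Senp3 (0.71), a SUMO protease of the nucleolus, Rpf1 (0.58), a pre-rRNA processing factor, and Sbds (0.47), which helps release Eif6 from the new subunit and is named after its value was seen. By edgeR's quasi-likelihood test and by DESeq2, none of the 53 was called after 3 min, 30 min or cold-active protease, where 5, 7 and 3 had an unadjusted edgeR p under 0.05. In low trypsin, where 5.19% of all genes were called, 2 of the 53 were called, Senp3 (0.70) and Nsa2 (-1.03), a share below that of all genes.

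Of 19 other mRNAs known to carry a TOP motif, 6 fell after 30 s, 2 after 3 min, 7 after 30 min, 7 in low trypsin and 3 after cold-active protease, and 1 rose, after 30 min. In that order of groups, 3.7%, 2.95%, 2.61%, 1.9% and 0.467% of all genes were called lower, and 2.07% were called higher after 30 min. Fau, which encodes a ubiquitin-like protein fused to a small subunit protein, fell by 0.75 after 30 s and 0.87 after 3 min, and Naca, a chaperone subunit that meets chains at the tunnel exit, fell by 0.48 and 0.28. Of 19 regulators of ribosome synthesis and TOP translation, edgeR called 2 after 30 s, both lower (1 by DESeq2), where it called 6.94% of all genes. It called 1 higher and 1 lower after 30 min, where 2.07% of all genes were higher and 2.61% lower. In low trypsin it called 2 lower (0 by DESeq2), where 1.9% of all genes were lower. After 3 min and after cold-active protease it called none, with 3 at an unadjusted p under 0.05 each time and 0 by DESeq2. In those groups it called 3.96% and 0.665% of all genes. Eif4ebp1, an mTOR target that holds back cap-dependent translation, fell by 0.35 after 30 s.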

How the data were processed

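BRB-seq libraries of C2C12 cells, 6 groups of 3, were compared. Per the submitters' processing notes, the tools were HISAT2 2.1.0 and featureCounts 2.0.1, UMI-tools 1.0.1, cutadapt 2.6, Trim Galore 0.6.6 and DESeq2 1.28.1, on GRCm38. Settings and strand are not given in the sources used here. Every test used the whole-number gene counts that the authors deposited. A deposited table named TPM equalled CPM in all 467226 cells (tolerance 1e-06), and the deposited normalized signal was the counts over 1 size factor per library (0.797 to 1.30); neither entered a test.

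Here edgeR 4.0.16 (R 4.3.3; TMM, filterByExpr by group, quasi-likelihood F test) was fitted to all 18 libraries and 10075 genes, with Benjamini-Hochberg adjustment over all of them; it was tested on simulated data. CPM values are TMM-scaled 3′ tag counts, not divided by length, so levels are compared within a gene. A floor of 3 counts was 1.21 to 2.01 CPM. All 18 pairs of libraries within a group differed beyond sampling noise (chi-square per degree of freedom 1.41 to 2.60). Same-numbered lots did not deviate together, so the replicate block is only an alternative. Members and lists were chosen with earlier results of these data known. The genes named were the markers Rpl32, Rplp1, Rpl28 and Rpl10, stalk and 5S proteins, Rpl3, Rpl4, Rpl13a, Rpl38, Rpl41 and the paralogs, plus per comparison the 5 largest called falls and 3 largest called rises against control (3 and 3 between treatments), and the 4 most highly counted members overall and among those the F test did not call. One member that the rule names is not reported here. Positions, lengths and shared 45-base stretches came from GENCODE M21, and start windows from RefSeq GRCm38.p6. Alternatives were DESeq2 1.42.0, other size factors, other filters on low counts and only the 2 groups compared. Further ones were named pseudogene counts added to the genes whose names they carry, a length trend removed and each library left out.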

Additional observations from a re-analysis of the deposited data

Results flagged for a closer look

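Treatments differed from one another in these genes, by the test of that difference itself. The edgeR quasi-likelihood test called 15 of 47 members between 3 min and 30 s of trypsin, where it called 1.94% of all genes. Between 30 min and 3 min it called 28 of 47, against 4.03% of all genes. It called 27 of 47 members between low and 3 min trypsin (4.36% of all genes) and 25 between low and 30 s trypsin (2.98%). Between cold-active protease and 3 min trypsin it called 25 of 47 (3.7% of all genes). With the length trend of other genes subtracted, the member medians of low trypsin against 3 min and 30 s were -0.06 and 0.06. In low against 3 min trypsin, 19 of the 23 members under 480 nt of coding sequence and 6 of the 24 others were called higher. Against 30 s these counts were 14 and 10.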

How the results depend on the processing

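The numbers of members called kept within 1.5 times of their main value under every alternative that gave a count (the removal of the length trend gives values only), except after cold-active protease against control. There 6 were called, DESeq2 called 10 (1 higher and 9 lower, with an adjusted p for 37 members), and leaving out a library gave 2 to 5. Leaving out each library in turn gave 33 to 35 calls for 30 s of trypsin, 27 to 28 for 3 min, and 18 to 23 both for 30 min and for low trypsin, each against control. One named value changed direction: Rpl10a between 30 s and 3 min, at -0.18 with the counts of its named pseudogenes added against 0.39. With the replicate block the counts against control were 35, 28, 22, 24 and 6, and the block ended a single named call (Rpl7a, low against 3 min trypsin, edgeR adjusted p = 0.0552). No same-number pair of 45 had deviations correlated above 0.1 (highest 0.0706), so the block pairs libraries by number only. With each library left out, 63 of 81 named calls held every time and 18 were lost at least once. With the length trend of other genes removed, the member median for low against 3 min trypsin was -0.06 in place of 0.26, for low against 30 s 0.06 in place of 0.26, and 32 values of named genes moved beyond their spread while 101 did not. Depth limits the members under 30 CPM, 5 of those tested. The cause of these shifts was not tested.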
